A study of Mus musculus with 2 samples.

Results

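The Krüppel-like factors (Klf proteins) measured here were those of 10 genes, Klf2, Klf3, Klf4, Klf5, Klf6, Klf7, Klf9, Klf10, Klf11 and Klf13, read by 12 probes out of 28233 gene names and 39429 probes on the array. Every non-control probe whose gene name was one of the 10 was taken, whatever its signal. Immortalized murine embryonic fibroblasts (MEFs) of C57BL/6 x B6:129 Ola background carried a floxed THOC5 gene on both alleles and Rosa26ERT2 Cre, a recombinase made from the ubiquitous Rosa26 locus and switched on by tamoxifen. One culture had no tamoxifen and is called control, since the labels give it as wildtype although it carries the same floxed alleles and Cre. The other had 2 days of tamoxifen and is called THOC5-depleted. Each culture was hybridized to 1 dual-colour array, with RNA of unstimulated cells in the Cy3 channel and RNA of cells given fetal calf serum (FCS) for 1 h in the Cy5 channel. The methods of the study describe serum starvation of the cells before stimulation, so unstimulated here means serum-starved. There was 1 array per culture and no dye swap, so no difference below has a replicate check or a test, and loss of THOC5, tamoxifen, Cre activity and culture cannot be told apart.

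Krüppel-like factors are transcription factors with a conserved zinc finger domain at the C-terminus that binds GC-rich and CACCC-type promoter elements. They differ mainly in the N-terminal part, which recruits acetyltransferase coactivators, the corepressor CtBP or the corepressor Sin3. Several are immediate early genes in fibroblasts, meaning that serum switches on their transcription without new protein synthesis, and their proteins then act on genes of cell cycle control, quiescence and TGF-β signalling. THOC5 is a subunit of the THO complex, which links transcription to mRNA processing and export, and the study asked how its loss changes the response of such genes to serum.

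The array checks bear on all values that follow. Thoc5 itself gave a signal of 4808 in unstimulated and 3047 in stimulated control cells, against 546 and 455 in THOC5-depleted cells. After scaling between arrays its level was 7.08-fold lower before and 5.38-fold lower after serum. All 8 fibroblast markers were well above background in all 4 channels, with a summed signal of 262812 to 355398, whereas the endothelial, epithelial and muscle lists summed to 890 to 1139, 94.5 to 187 and 43.7 to 49.2. Of these lists, 3 of 5 endothelial, 2 to 3 of 4 epithelial and 1 to 2 of 3 muscle genes were well above background in a channel. Pecam1, Cdh5 and Kdr, Epcam, Krt8 and Krt18, and Des and Myod1 were so in at least 1 channel, and Tek, Tie1, Cdh1 and Myh11 in none. The haematopoietic list summed to 6722 to 9173, with 2 of 4 genes well above background in control and 4 of 4 in THOC5-depleted cells, and the part of any of these lists in the results was not tested. Between 62.1% and 64.4% of the spots of a channel were well above background and 0 were saturated. Among probes printed many times, the log2 ratio varied between spots by a median SD of 0.028 for control and 0.030 for THOC5-depleted cells. The log2 ratios of 10 spike-in RNAs lay on average 0.24 higher on the THOC5-depleted array (0.15 to 0.31), and its log2 ratios were less spread, with a median absolute deviation of 0.135 against 0.231.

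The promoters of the genes on which the results turn are shown first. RefSeq start sites were found for 8 of the 10 genes (GRCm38.p6), and Klf5 and Klf10 had no entry in the table used. Klf2 is shown because its serum ratio passed 2 after THOC5 depletion and not in control, Klf9 because its response was much smaller there, Klf4 because its response was nearly equal on both arrays, and Klf11 because its ratios lay on opposite sides of 1. Each run is the 250 bases before the start site, 5′ to 3′ on the strand of the gene. Capitals mark the core TGACG of the cAMP response element (CRE), the AP-1-like string TGANTCA and the MEF2 box, on either strand.
Klf2, chr8:72318812-72319061, plus strand: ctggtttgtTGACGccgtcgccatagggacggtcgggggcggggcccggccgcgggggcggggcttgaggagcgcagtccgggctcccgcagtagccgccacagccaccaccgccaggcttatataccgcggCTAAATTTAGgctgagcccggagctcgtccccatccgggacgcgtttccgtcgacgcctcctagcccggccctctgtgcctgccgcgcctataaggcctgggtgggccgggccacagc
Klf9, chr19:23140976-23141225, plus strand: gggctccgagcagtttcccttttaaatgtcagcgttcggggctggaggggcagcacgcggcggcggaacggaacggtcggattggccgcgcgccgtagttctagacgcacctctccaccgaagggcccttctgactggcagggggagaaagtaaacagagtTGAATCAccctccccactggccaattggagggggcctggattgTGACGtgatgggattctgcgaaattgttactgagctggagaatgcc
Klf4, chr4:55532476-55532725, minus strand: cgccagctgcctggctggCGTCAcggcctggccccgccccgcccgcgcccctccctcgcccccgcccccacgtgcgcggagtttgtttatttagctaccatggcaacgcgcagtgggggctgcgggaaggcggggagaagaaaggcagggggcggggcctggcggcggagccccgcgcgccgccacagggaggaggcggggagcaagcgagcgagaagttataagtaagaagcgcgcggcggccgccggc
Klf11, chr12:24651121-24651370, plus strand: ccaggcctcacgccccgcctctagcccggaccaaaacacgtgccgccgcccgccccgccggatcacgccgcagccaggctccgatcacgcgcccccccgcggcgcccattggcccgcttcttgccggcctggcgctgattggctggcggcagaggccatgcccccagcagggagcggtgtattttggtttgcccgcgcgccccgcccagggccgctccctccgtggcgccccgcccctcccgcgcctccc

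All 4 runs were richer in G and C than the median promoter, at 71.2% for Klf2, 59.6% for Klf9, 74.0% for Klf4 and 76.8% for Klf11 against 52.4%. The Klf2 run held a MEF2 box, the element bound by the MEF2 factors, at positions -118 to -109 from the start, and a CRE core at -241 to -237. A MEF2 box was found in 0.557% of the 32851 RefSeq windows of 300 bases (250 before to 50 after the start) and in no other Klf window. The Klf9 run held the only match to TGANTCA among the Klf windows, at -89 to -83 (7.81% of all windows), and a CRE core at -46 to -42. That match, TGAATCA, is not the AP-1 consensus, which has C or G as its middle base. The Klf4 run held a CRE core at -232 to -228. In all, 5 of the 8 Klf windows held this core (Klf2, Klf3, Klf4, Klf9 and Klf13), against 20.8% of all windows.

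A GC box (GGGCGG), the kind of site that Klf and Sp proteins bind, was in 7 of the 8 windows and was missing in that of Klf9, against 35.7% of all windows. The CACCC element was in 5 of 8 (57.5% of all windows), and CCAAT, bound by NF-Y, in 4 of 8 (37.4%). The full CRE (TGACGTCA, which contains the CRE core), TATAAA and the CArG box of serum response factor were in none of the 8, and in 1.79%, 13.6% and 1.63% of all windows. Both strands were searched for each motif. A match is a string of letters in the reference, and no binding was measured.

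**Figure D1:**
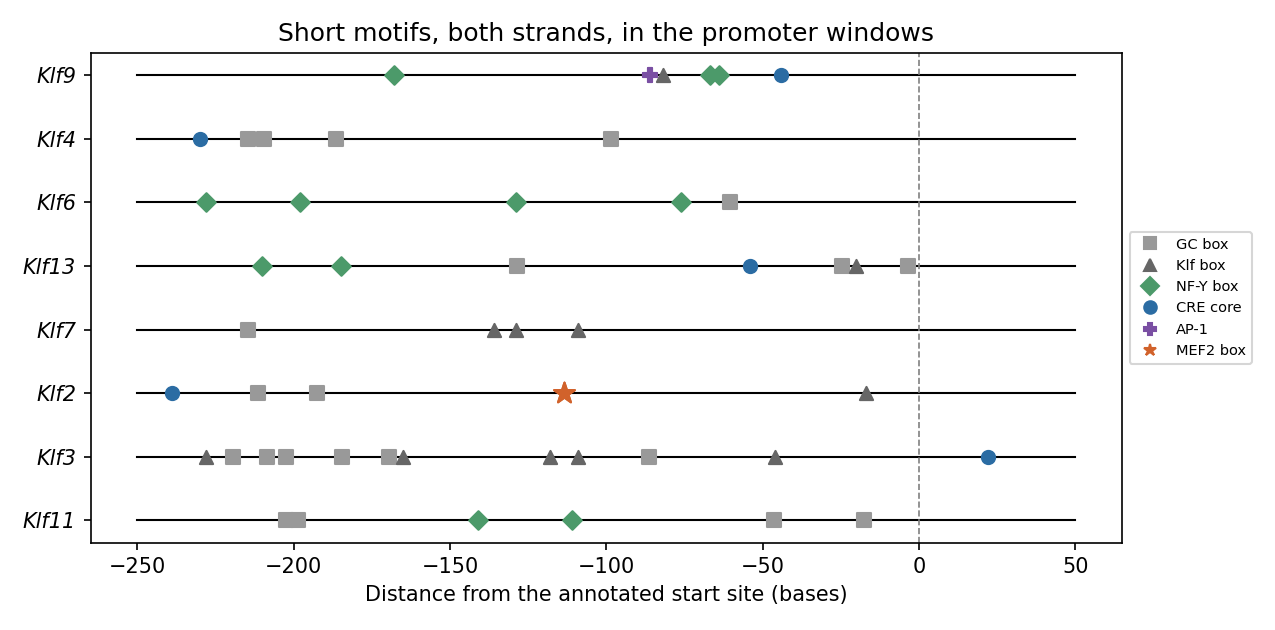
Short motifs in the promoter windows of 8 Klf genes, plotted by distance in bases from the annotated start site (dashed line), with 1 symbol per match on either strand (Klf box, the CACCC element, and NF-Y box, CCAAT). Genes are ordered by control serum ratio, and the MEF2 box of Klf2 and the TGANTCA match of Klf9 (marked AP-1, read as TGAATCA) stand alone.

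The serum response of a gene is given here as the Cy5 over the Cy3 signal of 1 array, and the fold reduction as the control ratio over the THOC5-depleted ratio, so that a value above 1 means a smaller response after depletion. All 10 genes were well above background in all 4 channels with their brightest probe. In control cells 3 of the 10 had a ratio of 2 or more (Klf4, Klf9 and Klf10), where 2.89% of 18774 measured genes did. In THOC5-depleted cells 4 did (Klf2, Klf4, Klf6 and Klf10), against 1.23% of 18527 genes. Klf4 and Klf10 reached 2 on both arrays, against 0.883% of genes. No Klf gene fell to 1/2 or less on either array (2.3% and 0.626% of all genes).

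The responses moved apart in both directions. Klf5, Klf9 and Klf10 had a fold reduction above 1.3 (8.33% of 17193 genes), and Klf2 and Klf11 had the reverse, a response at least 1.3 times as large after depletion (10.2%). Beyond 2-fold lay Klf9 and Klf10 on the reduced side (1.16%) and Klf2 on the other (0.814%). With the log ratios scaled to equal spread this balance turned. Beyond 2-fold 0 Klf genes were then reduced (0.477% of all genes at the same scaling) and Klf2 and Klf4 lay on the other side (0.43%). At 1.3 the scaled counts were 2 reduced (Klf5 and Klf9, 7.08%) and 4 on the other side (Klf2, Klf4, Klf6 and Klf11, 8.56%). The median log2 fold reduction of the 10 genes was 0.06 with a range of -1.56 to 1.47, and that of all genes was -0.01 with -0.54 and 0.50 as its 5th and 95th percentiles. The median log2 serum ratio was 0.60 in control and 0.48 in THOC5-depleted cells, against -0.03 and -0.01 over all genes. With the ratio and signal limits of the study, a ratio above 4 after rounding to a decimal and a Cy5 signal above 200, but without its further condition on transcript annotation, Klf9 and Klf10 qualified in control cells (0.495% of genes) and no Klf gene after depletion (0.151%). Klf9 lay at that limit, and its control log2 ratio of 2.02 was 1.90 with normexp and loess, 1.94 after centring and 1.54 at equal spread of both arrays. At equal spread the THOC5-depleted log2 ratios of Klf2, Klf4 and Klf10 were 2.43, 2.31 and 2.61, above the limit that 0.259% of all genes then passed.

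**Figure D2:**
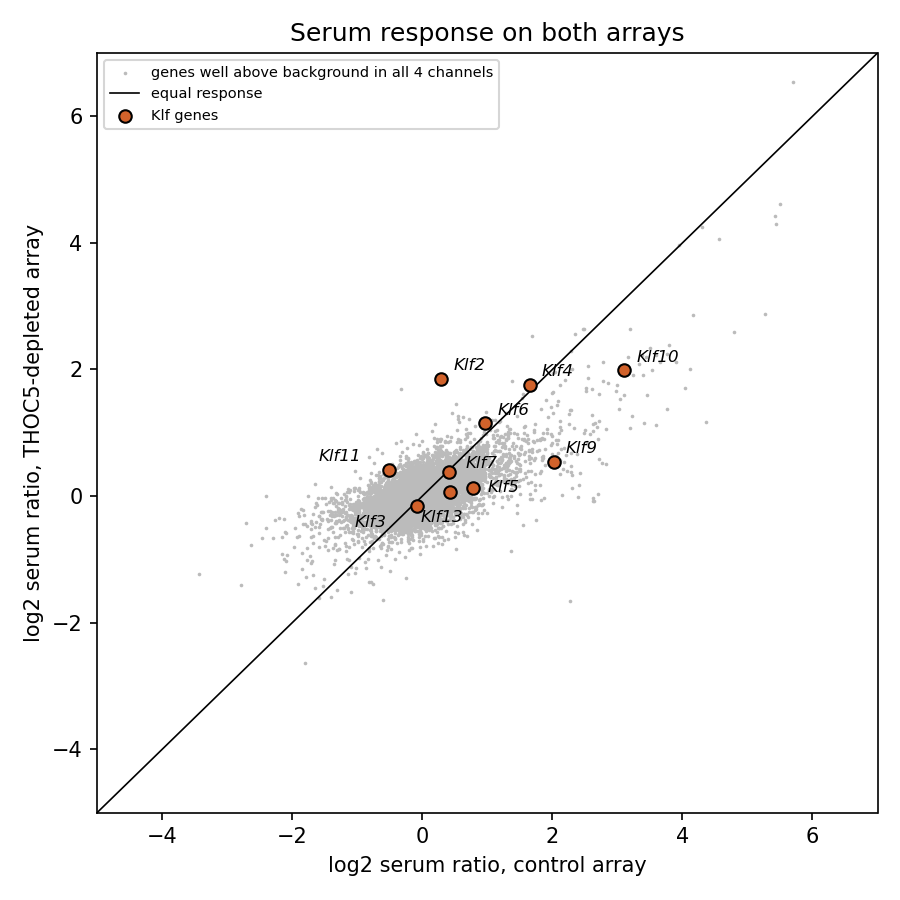
Log2 serum ratio (Cy5 over Cy3) on the THOC5-depleted array against that on the control array, for every gene well above background in all 4 channels (grey) and the 10 Klf genes (orange). Klf2 and Klf11 lie above the line of equal response, Klf9 and Klf10 below it, and Klf4 close to it at 1.65 and 1.76.

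Klf10 and Klf11 are the TGF-β-inducible early genes (TIEG1 and TIEG2), repressors that bind Sin3 and act in the TGF-β pathway. The Klf10 probe (mm9 chromosome 15, 38224255 to 38224314) gave a signal of 3405 in unstimulated and 29274 in stimulated control cells, and of 2335 and 9282 in THOC5-depleted cells. The stimulated control level thus stood apart from the other 3. Klf10 had the largest control response of the 10 genes, 8.60-fold, the 49th highest of all genes measured. In THOC5-depleted cells it was 3.98-fold, the 51st highest there. The log2 fold reduction was 1.11, where the error that the scanner software gives for the spots was 0.45, and the fold reduction of 2.16 ranked 148th of 17193. Scaled to equal spread of the log ratios on both arrays the fold reduction turned to 0.848, so its direction rests on leaving the smaller spread of the THOC5-depleted array as it was.

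Klf11 went the opposite way. Its probe (mm9 chromosome 12, 25347324 to 25347383) was dim, with signals of 77.1 and 54.2 in control and 85.4 and 114 in THOC5-depleted cells. The serum ratio was 0.703 in control but 1.33 in THOC5-depleted cells (log2 -0.51 and 0.42, software errors 0.22 and 0.21). Of all genes, 31.4% had ratios on opposite sides of 1, in either direction. The fold reduction of Klf11, 0.527, was the 184th lowest of 17193. Without the dye normalization of the scanner software, where the control log2 ratios of all genes lay higher by a median of 0.82, that of Klf11 was 0.30, so its sign changed while it stayed below that median. The larger ratio after depletion held in every setting run (fold reduction 0.520 to 0.660).

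Klf9 and Klf13, also Sin3-binding repressors, are among the basic transcription element binding proteins, and Klf9 is a known target of glucocorticoid and thyroid hormone receptors. The brighter Klf9 probe (mm9 chromosome 19, 23240410 to 23240469) gave 268 and 1088 in control cells and 380 and 554 in THOC5-depleted cells. The THOC5-depleted culture therefore started higher and ended lower, and both of its levels lay between those of the control at this probe. The response was 4.05-fold in control and 1.46-fold in THOC5-depleted cells, with log2 ratios of 2.02 and 0.54 and software errors of 0.28 and 0.21. The fold reduction of 2.78 was the largest of the 10 genes and ranked 68th of 17193. With log ratios scaled to equal spread it was 1.78, no longer above 2.

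A further Klf9 probe, 2821 bases along the chromosome (23243231 to 23243290), was far dimmer, with 17.4 and 69.2 in control and 9.65 and 15.3 in THOC5-depleted cells. The unstimulated signal of the depleted cells was not well above background. Both depleted signals lay below both control signals, unlike at the brighter probe. The control ratio was 3.98, close to that of the brighter probe. In THOC5-depleted cells its ratio was at least 1.37, which bounds the fold reduction at 2.91 or less, and the measured values were 1.58 and 2.51.

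Klf13 was read by 2 probes 50372 bases apart on chromosome 7 (71082854 to 71082913 and 71032482 to 71032541). The brighter gave 1142 and 1533 in control and 917 and 955 in THOC5-depleted cells. Its ratios were 1.34 and 1.04 and its fold reduction 1.29, and the other probe gave 1.23, 1.02 and 1.20. A further probe that matches Klf13 but is listed under a transcript ID was not a member by the rule, and its signals of 18.9 to 21.9 gave 0.916, 0.862 and 1.06. At the brightest probe, the log2 difference of 0.37 between the arrays compares with a software error of 0.29, and the fold reduction passed 1.3 without dye normalization and with the spike-in difference subtracted, where it was 1.53.

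Klf2 and Klf4 are close relatives with acetyltransferase-binding activation domains. Klf2 is best known for quiescence of T cells and endothelium, where blood flow induces it through MEF2 factors, and Klf4 is one of the factors that reprogram fibroblasts to pluripotency. The Klf2 probe (mm9 chromosome 8, 74845137 to 74845196) gave 5984 and 7320 in control cells and 4198 and 15183 in THOC5-depleted cells. The high value was the stimulated depleted sample, and the other 3 lay between 4198 and 7320. The serum ratio was 1.22 in control and 3.62 in THOC5-depleted cells, with log2 ratios of 0.29 and 1.85 and software errors of 0.21 and 0.27. Klf2 stood 3054th of 18774 genes in control and 66th of 18527 in THOC5-depleted cells. Its response was 2.96-fold larger after depletion, the 18th largest difference in that direction among 17193 genes. In every setting run the response was larger after depletion (fold reduction 0.217 to 0.401).

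The Klf4 probe (mm9 chromosome 4, 55540167 to 55540226) gave 2874 and 9010 in control and 2386 and 8084 in THOC5-depleted cells. Both stimulated levels were far above both unstimulated ones. The ratios were 3.14 and 3.39, and the log2 difference of 0.11 lay within its software error of 0.36. Klf4 ranked 238th in control and 74th in THOC5-depleted cells, where fewer genes reached a ratio of 2. With the log ratios scaled to equal spread its fold reduction moved from 0.925 to 0.484.

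**Figure D3:**
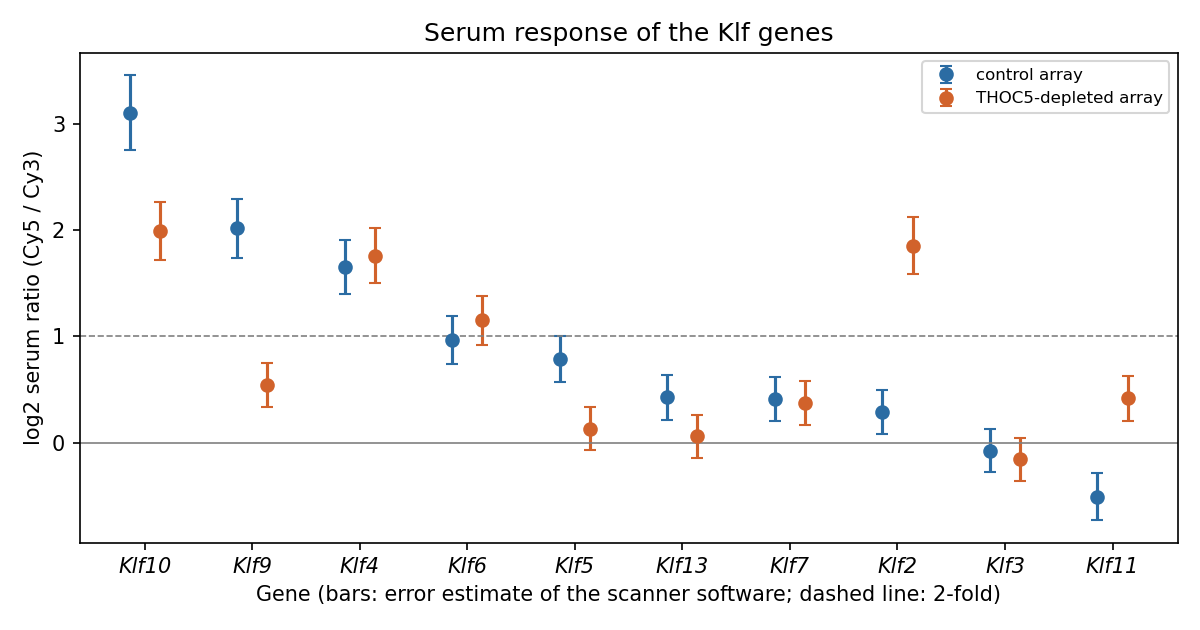
Log2 serum ratio (Cy5 over Cy3) of the 10 Klf genes on the control (blue) and THOC5-depleted (orange) array, with bars for the error estimate of the scanner software and a dashed line at 2-fold. The bars do not overlap for Klf2, Klf5, Klf9, Klf10 and Klf11, and they cover spot measurement only, not the spread between cultures.

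Klf5, Klf6 and Klf7 also act mainly as activators. Klf5 promotes proliferation in epithelium and smooth muscle. Its probe spanned 9733 bases of the genome (mm9 chromosome 14, 99702656 to 99712388) for 60 bases of sequence, so by its position it crosses an intron. The signals were 1013 and 1745 in control and 1036 and 1136 in THOC5-depleted cells, and the stimulated control value stood above the other 3. The serum ratio of Klf5 was 1.72 in control cells but 1.10 after depletion, or 0.926 once the spike-in difference was subtracted. The log2 difference was 0.65 with a software error of 0.30.

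Klf6, a broadly expressed factor induced by injury and growth stimuli, had a probe on chromosome 13 (mm9, 5869371 to 5869430). Signals of 14477 and 28299 in control against 14351 and 31874 in THOC5-depleted cells gave ratios of 1.95 and 2.22. Klf6 fell on either side of the 2-fold limit although the log2 difference of -0.18 was smaller than its software error of 0.32. At equal spread the fold reduction of Klf6 moved from 0.880 to 0.587. At a limit of 1.5 it counted on both arrays, and 5 of the 10 genes reached that limit in control (6.92% of all genes) and 4 in THOC5-depleted cells (3.84%).

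Klf7, which is known for its part in neuronal development, gave 2443 and 3249 in control and 2393 and 3099 in THOC5-depleted cells (mm9 chromosome 1, 64082265 to 64082324). Its ratios of 1.33 and 1.29 were nearly equal. Klf3, a repressor that binds CtBP, gave 2977 and 2826 in control and 2490 and 2233 in THOC5-depleted cells (mm9 chromosome 5, 65221309 to 65221368). Its ratios of 0.949 and 0.897 were within the software error of 1, and it was the only member besides Klf11 with a control ratio below 1.

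**Figure D4:**
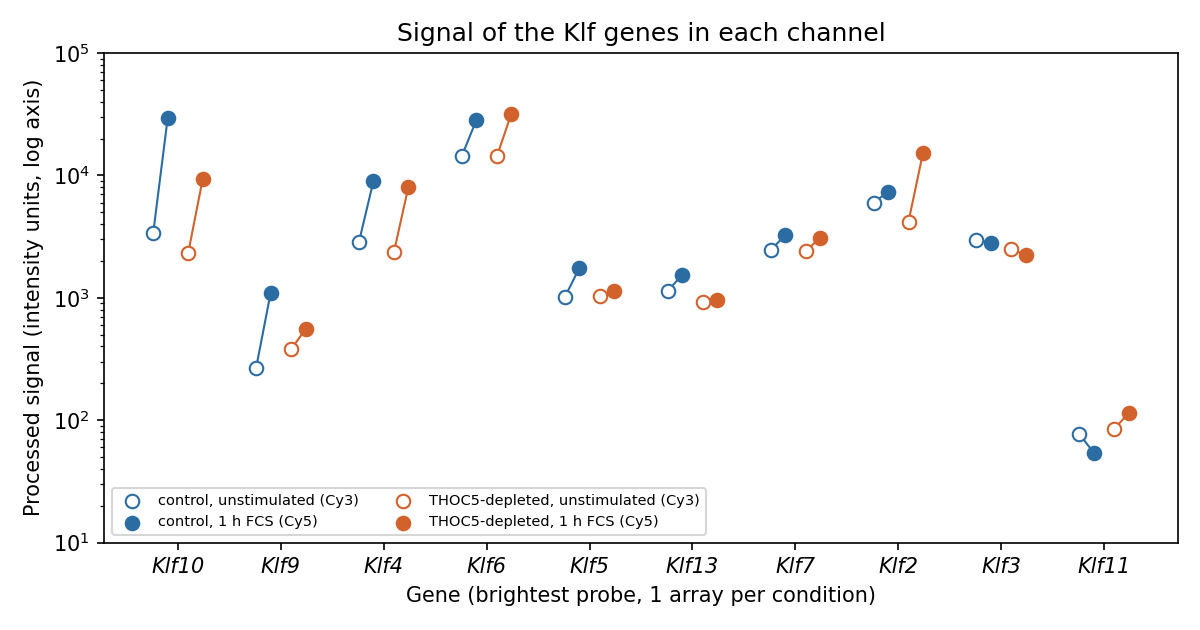
Processed signal (log axis) of the brightest probe of each Klf gene in the 4 channels, with open symbols for unstimulated and filled symbols for serum-stimulated cells, and lines joining the channels of 1 array. The stimulated THOC5-depleted value of Klf10 (9282) lies below that of control (29274), and that of Klf2 (15183) above it (7320); heights of different genes come from different probes and are not comparable.

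The cultures were also compared within a channel, after quantile scaling of the average intensities of the arrays. Before serum no Klf gene differed 2-fold or more (3.3% of 19052 genes were lower and 3.12% higher in THOC5-depleted cells). Klf9 came nearest by its brighter probe, at 1.71-fold higher, which its dim probe did not repeat. After serum Klf10 was 2.51-fold lower in THOC5-depleted cells (3.13% of 18665 genes), and Klf2 and Klf11 were 2.59-fold and 2.35-fold higher (3.59%). With the mean over its probes, the log2 difference of Klf9 after serum was -1.37 in place of -0.70, beyond 2-fold. The share of all genes at 2-fold was not counted for that mean. With normexp, loess and the same scaling the log2 difference of Klf11 after serum was 0.85 in place of 1.23, under 2-fold. At a limit of 1.5-fold, no Klf gene was lower before serum (7.59% of all genes) and Klf9 alone was higher (6.98%), while after serum Klf9 and Klf10 were lower (7.25%) and Klf2 and Klf11 higher (8.45%).

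Read together with the unstimulated levels, the members separated into patterns. Klf10 was 1.16-fold lower before serum and differed more after it. Klf2 likewise was 0.877 of control before and above control after serum. Klf11 was 1.24-fold of control before serum. Klf9 went from 1.71-fold higher to 1.63-fold lower by its brighter probe, but its dim probe was lower at both times and the mean over both gave log2 differences of 0.04 and -1.37, the former resting on a signal not well above background. Klf5 went from 1.25-fold higher to 1.25-fold lower. Klf3, Klf4, Klf6, Klf7 and Klf13 stayed within 0.762 and 1.37 of control in both channels, a range that also holds Klf5.

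**Figure D5:**
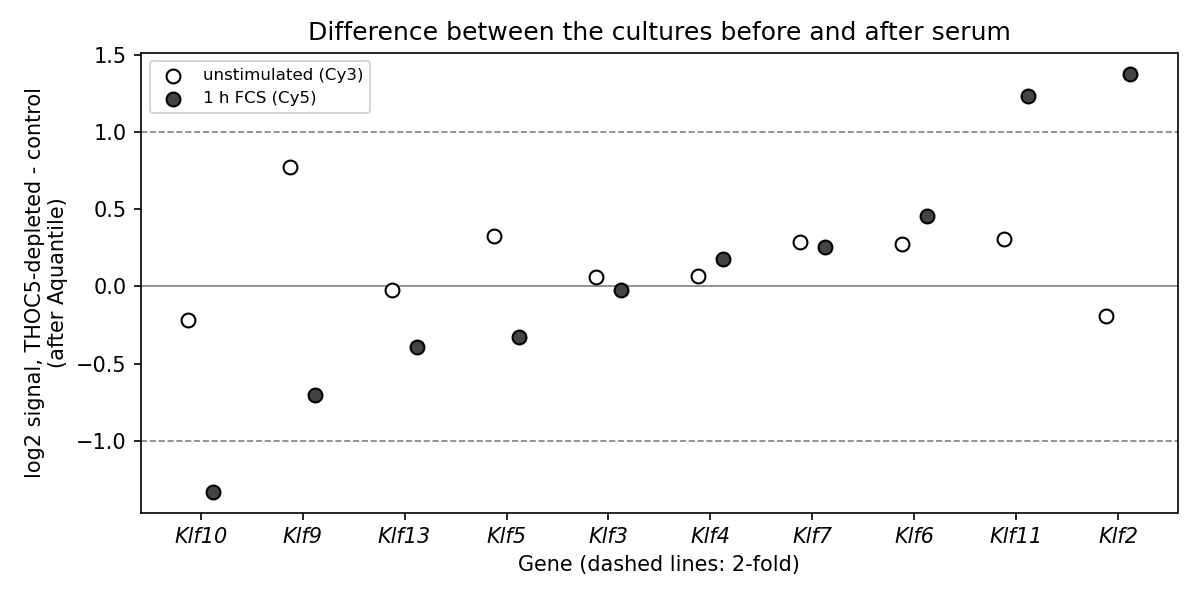
Log2 signal in THOC5-depleted minus control cells for each Klf gene, before serum (open) and after 1 h FCS (filled), with dashed lines at 2-fold. All open symbols lie within 2-fold, and Klf10 (-1.33), Klf11 (1.23) and Klf2 (1.38) pass it after serum.

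The genes lying nearest to each member were found by distance over 3 log2 values (the serum ratio on each array and the unstimulated difference between cultures) among 17193 genes. Klf10 lay nearest to Tmem88 (10.5-fold in control and 3.76-fold in THOC5-depleted cells), Tmem95 (9.42 and 3.76) and the helix-loop-helix inhibitor Id3 (7.98 and 3.37), at distances of 0.30 to 0.49. Klf9 had close neighbours in Lce1g (3.90 and 1.41), the antiplasmin gene Serpinf2 (3.88 and 1.51) and Dub1 (4.17 and 1.55). Klf4 lay near A330017A19Rik (2.93 and 3.04), Zfp36 (4.05 and 3.83), which encodes the mRNA decay protein tristetraprolin, and 1700064E03Rik (4.32 and 3.38).

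Of the 10 members, Klf2 lay farthest from its nearest gene. This was Gsta2, which encodes a glutathione S-transferase, at a distance of 0.52 (1.44 and 2.74), followed by Gm10639 (1.38 and 2.48) and Gm10621 (0.796 and 3.25). Klf5 lay nearest to Nfatc1 (1.77 and 1.11, at a distance of 0.06), Gm3650 and Yrdc. Klf6 was closest to 5430434G16Rik (2.10 and 2.30, at 0.12), then to the receptor gene Adra2a (1.96 and 2.15) and LOC677368. Klf11 was closest to AI646023 (0.748 and 1.35, at 0.09), then to Lypd6b and Ephx4. Klf3, Klf7 and Klf13 had their nearest gene at 0.01 to 0.03, and their neighbours were Gm8375, Gm5302 and Mrpl42 for Klf3, BC031353, Tbr1 and Gm9193 for Klf7, and Gm7107, Gm2705 and Gm3804 for Klf13. Among the members themselves the closest were Klf5 with Klf7 and Klf7 with Klf13, both at 0.45.

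The rest of the family and its partners were taken as lists, in which a ratio counted when at least 1 channel of that array was well above background. Of the other 7 Klf genes, Klf1 and Klf14 were below background, and none of the others reached a ratio of 2, with 0.720 to 1.83 for 5 genes in control and 0.778 to 1.14 for 4 genes in THOC5-depleted cells. The highest of both was Klf16. Klf15, at a signal of 16.9 in unstimulated control cells, was at least 1.36-fold lower in THOC5-depleted cells, where it was not well above background. Of the Sp genes, whose proteins share the zinc fingers, 7 of 9 were measured and 0 reached 2, with medians of 1.23 and 1.13 and ranges of 0.968 to 1.84 in control and 1.05 to 1.71 after depletion. Sp6 was the highest on both arrays. The 11 cofactor genes, among them Sin3a, Ctbp1 and Ep300, ranged from 0.747 to 1.32 in control and from 0.763 to 1.17 in THOC5-depleted cells, with 0 at 2 or more. The 6 ubiquitin ligase genes had medians of 0.940 and 1.07 and likewise 0 at 2 or more.

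Of 21 genes for regulators of Klf transcription 19 were above background, and 1 responded 2-fold. This was Srf, which encodes serum response factor, with signals of 4191 and 10416 in control and 2312 and 4363 in THOC5-depleted cells (ratios 2.49 and 1.89). Creb1, which encodes a factor that binds the CRE, had an unstimulated signal of 130 in control against 267 in THOC5-depleted cells, 2.42-fold higher after scaling, and ratios of 1.53 and 1.05. Mef2c was below background, Mef2a had ratios of 1.72 and 1.57 and Mef2d of 1.66 and 0.994. The list's medians were 1.05 and 1.01.

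Of 12 reported target genes of Klf proteins, 5 had a ratio of 2 or more in control cells and 2 after THOC5 depletion (2.89% and 1.23% of all genes), with medians of 1.41 and 1.09 against all-gene log2 medians of -0.03 and -0.01. Smad7, an inhibitor of TGF-β receptors, went from 393 to 6437 in control (16.4-fold) and from 672 to 2200 in THOC5-depleted cells (3.28-fold). Cdkn1a, which encodes the cell cycle inhibitor p21, had ratios of 7.09 and 2.10. Pdgfa, a growth factor gene, had ratios of 4.33 and 1.27. Thbd, which encodes thrombomodulin, had 3.34 and 1.28, and the protease gene Plau 2.80 and 1.41.

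Among the serum ratios of Pdgfa, Thbd and Plau only that in control reached the limit for naming, so their smaller ratios on the other array, whose log ratios were less spread, are a description only. Thbd and Smad7 also differed before serum, where they were 3.46-fold and 2.17-fold higher in THOC5-depleted cells. Thbd, which is a known target of Klf2 and Klf4, had signals of 54.8 and 183 in control and 164 and 209 in THOC5-depleted cells, so its unstimulated depleted level was already close to both stimulated ones. A single time of 1 h gives no order between the Klf genes and these targets, and no link between them was tested.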

How the data were processed

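Total RNA was labelled with Cy3 or Cy5 and hybridized to 2 dual-colour Agilent arrays that share 1 slide. Per the file headers, the authors' scanner software (Agilent Feature Extraction 10.7.3.1, per the submitters' processing notes) subtracted background, normalized the dyes (linear and LOWESS) and gave the deposited processed intensities, log10 ratios of Cy5 over Cy3 with an error, and background and outlier marks, with probe positions in mm9. The deposited series table, whose unit is a log10 ratio, held 0 negative values among 44397 features on either array, where the scanner had 18655 and 18600, so it lacks the sign. It was equal in size to the scanner value within 1e-06 for 85.1% and 86.3% of features and never above it, and it was used with the scanner sign as an alternative.

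Control and outlier spots were left out, spots of a probe were averaged as log2 intensities, and the brightest probe stood for a gene. Ratios required Cy5 or Cy3, whichever was brighter, well above background, and fold reductions all 4 channels. Levels between arrays were compared after Aquantile scaling (limma 3.58.1, R 4.3.3; Python 3.11.15 otherwise). With 1 array per group no test was run; the number of arrays limits the precision, and the software error covers spots only. The calculations were tested on simulated data. Alternatives were normexp (offset 50) with loess, no dye normalization, the series table, a floor of 50, mean or median over probes, outlier spots kept, equal spread, centring, other thresholds, and 75th percentile or no scaling.

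Members and gene lists were chosen with earlier results of these data known. Named are all members and, from lists of other Klf genes, Sp genes, regulators, cofactors, ligases and targets, genes with a ratio of at least 2 or at most 0.5 on either array or a 2-fold unstimulated difference (at most 6 a list), plus the 3 nearest genes of each member. Klf1, Klf14, Klf16, Sp6, Mef2a, Mef2c and Mef2d and example list genes were named after their values were seen. Promoters are from RefSeq (GRCm38.p6). The mm9 positions were not set against gene models, since no annotation of that build was used here.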

Additional observations from a re-analysis of the deposited data

Results flagged for a closer look

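Klf11 was singled out because its serum response took opposite directions on the arrays. The ratio of stimulated to unstimulated signal was 0.703 without tamoxifen and 1.33 after THOC5 depletion. With 1 array per culture the difference between these responses was not tested, and 31.4% of all genes lay on opposite sides of 1 in either direction. The signals behind the ratios, 54.2 to 114, compare with a 75th percentile of 862 to 1063 over all spots of a channel.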

How the results depend on the processing

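No paired analysis was possible because each culture had 1 array. Without the dye normalization of the scanner software, 8 control values in place of 3 reached the 2-fold limit, and 7 in place of 4 after depletion, but so did 29.4% and 17.2% of all genes, whose log2 ratios lay higher by a median of 0.82 and 0.74. A limit of 1.5 gave 5 in control, and 1 Klf gene differed 1.5-fold between unstimulated cultures, where 0 differed 2-fold. The log2 fold reduction of Klf10 became -0.24 when the log ratios of both arrays were scaled to equal spread, and the cause was not tested. At equal spread, Klf genes with a fold reduction above 2 went from 2 to 0 (all genes from 1.16% to 0.477%), under 1/1.3 from 2 to 4 (10.2% to 8.56%) and under 1/2 from 1 to 2 (0.814% to 0.43%). The ratio and signal limits of the study held for 1 in place of 2 in control (0.495% to 0.266%) and 3 in place of 0 after depletion (0.151% to 0.259%). Of the values of single genes, 370 under an alternative moved by less than the software error. In all, 17 changed sign, among them the control log2 ratio of Klf11 without dye normalization (0.30), and Klf10 above was the 1 among them that had passed a fold limit. Subtracting the spike-in difference from the THOC5-depleted array, an alternative chosen after seeing the data, lowered every log2 ratio there by 0.24. Klf6 thereby fell to a log2 ratio of 0.91, under 2-fold. The share of all genes at 2-fold was not counted at this setting. The fold reduction ranged over all settings from 1.78 to 3.29 for Klf9, from 1.34 to 1.86 for Klf5 and from 0.217 to 0.401 for Klf2. Low signal over background left the further Klf9 probe with a bound in unstimulated THOC5-depleted cells.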
